A study of Homo sapiens with 8 samples.

Results

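The genes described here are the 10 of the 38148 in the HT29 table that encode the apical DNA damage checkpoint: the kinases ATR and ATM, the ATR partner ATRIP, the ATR activator TOPBP1, the subunits RAD9A, RAD1 and HUS1 of the 9-1-1 clamp, the clamp loader subunit RAD17, and the effector kinases CHEK1 and CHEK2. They were chosen by gene name and not by a rule on their values, though with earlier results of these data known. All 10 were above the filter on low values, a mean log2 value over the 8 libraries that corresponds to at least 1 RPM (reads of a gene scaled to the size of its library), which 14219 genes passed. HT29 is an established line of colorectal cancer cells. Selumetinib blocks MEK, and with it the activation of ERK. Cells were left untreated or grown in 1 µM selumetinib for 24 h, fixed with glyoxal, stained for cyclin B1 (CCNB1), a protein that accumulates in G2, and sorted for poly(A) mRNA-seq. There were 2 libraries in each of 4 groups, the CCNB1-negative and the CCNB1-positive fraction of untreated cells and the same fractions of cells in selumetinib. All groups were HT29 cells with the same fixation and staining, and the CCNB1-negative fraction is defined by low cyclin B1, not by a single cell cycle phase.

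The labels of all 8 libraries contradict themselves. The groups here follow the sample descriptions, which are also the column names of the table, whereas the sample titles and the growth medium label give each library the opposite treatment and the opposite fraction. Under the titles, each response to selumetinib below would belong to the other fraction with its sign changed, and the difference between the responses would keep its sign and size. With the groups of the descriptions, CCNB1 mRNA was higher in the CCNB1-positive fraction by 2.09 on the log2 scale in untreated cells and by 5.08 in selumetinib. Of 9 genes of the MEK output list, 8 fell and 1 rose in selumetinib in each fraction, where 35.8% and 27.3% of all genes tested fell. ETV4, an ETS factor gene induced by ERK signalling, changed by -3.10 in the CCNB1-negative and by -2.34 in the CCNB1-positive fraction. Its 2 selumetinib CCNB1-positive libraries read 7.82 and 9.19. EGR1, the gene that rose, changed by 1.17 and 1.58. The labels name RPMI-1640 as the medium, and the study's methods name McCoy's 5A for HT29. Depth was between 12696860 and 23916160 reads on genes per library. Summed epithelial markers moved with treatment, at 9930 to 11016 RPM in untreated CCNB1-negative, 9982 to 10068 in untreated CCNB1-positive, 4578 to 6514 in selumetinib CCNB1-negative and 6143 to 8247 in selumetinib CCNB1-positive cells. Most of the reads in this sum were on KRT8 and KRT18. Of 7 markers 3 fell (EPCAM, KRT8 and KRT18) and 2 rose (CDX2 and VIL1) in the CCNB1-negative fraction. In the CCNB1-positive fraction 1 fell (EPCAM) and 2 rose (CDX2 and VIL1). The part of these markers in the results below was not tested. The 8 markers of leukocytes, endothelium and fibroblasts were at 3.61 to 7.76 RPM in all, with 0 to 4 of the 8 without a read in each library.

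ATR responds to single-stranded DNA coated with replication protein A at stalled forks, and ATM to double-strand breaks. ATRIP recruits ATR, RAD17 with the small RFC subunits loads the 9-1-1 clamp, and the clamp brings in TOPBP1, which switches ATR on. CHEK1 is mainly the target of ATR and CHEK2 of ATM, and both restrain the CDC25 phosphatases that drive entry into S phase and mitosis.

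Values below are log2 read counts normalised to the total of each library, and differences are on that log2 scale with their 95% interval. Adjusted p-values are from limma with Benjamini-Hochberg adjustment over all 14219 genes, and a gene is said to rise, fall or change where that value is under 0.05. In CCNB1-negative cells 9 of the 10 genes changed in selumetinib, 3 upwards and 6 downwards, where 74.1% of all genes tested changed, 38.2% upwards and 35.8% downwards. In CCNB1-positive cells 6 of the 10 changed, 2 upwards and 4 downwards, where 65.3% of all genes changed, 38.0% upwards and 27.3% downwards. The share that changed was thus high throughout the table. The median difference of the 10 was -1.02 in the first fraction and -0.19 in the second, where the medians over all genes tested were 0.05 and 0.17. The groups did not overlap for 9 and 8 of the 10, where 86.4% and 85.8% of all genes did not overlap. RNA was extracted from pools of cells, so fewer cells that make a transcript and less of it per cell cannot be told apart.

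**Figure D1:**
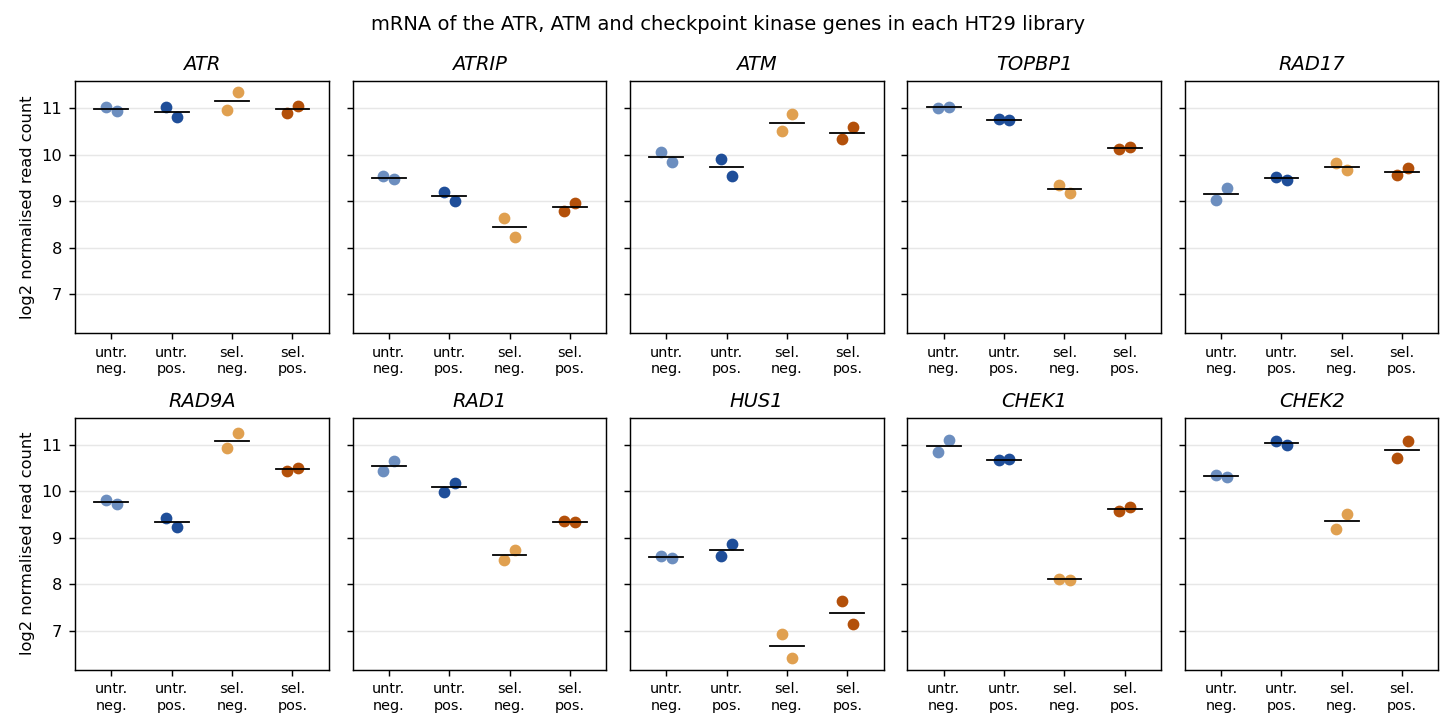
Log2 normalised read count (y axis) of the 10 genes in each library, with 2 points per group, a bar at their mean, and groups on the x axis (untr., untreated; sel., selumetinib; neg. and pos., CCNB1-negative and CCNB1-positive). ATR stayed between 10.82 and 11.34 in all 8 libraries, whereas CHEK1 ranged from 8.10 to 11.10.

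The mRNA of the sensor kinase ATR was close to level across the groups. It read 11.03 and 10.93 in untreated CCNB1-negative cells, 11.02 and 10.82 in untreated CCNB1-positive cells, 10.96 and 11.34 in selumetinib CCNB1-negative cells, and 10.91 and 11.06 in selumetinib CCNB1-positive cells. The groups overlapped in every comparison. The response was 0.17 (-0.17 to 0.51, adjusted p = 0.35) in CCNB1-negative cells. In CCNB1-positive cells it was 0.06 (-0.28 to 0.41, adjusted p = 0.74). With libraries scaled to nuclear genes without MALAT1 the CCNB1-negative value was 0.48 and passed the test (adjusted p = 0.018).

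ATRIP, the obligate partner that ATR needs to reach single-stranded DNA, fell in CCNB1-negative cells. Its values were 9.54 and 9.48 untreated against 8.64 and 8.24 in selumetinib, a difference of -1.07 (-1.45 to -0.69, adjusted p = 9.5e-05). In CCNB1-positive cells they were 9.20 and 9.01 against 8.79 and 8.97, a difference of -0.22 (-0.61 to 0.16, adjusted p = 0.28). The treated libraries were below the untreated ones in both fractions, by a narrow margin in CCNB1-positive cells. In GENCODE release 44, 26.7% of the exon bases of ATRIP also belong to TREX1, an exonuclease gene on the same strand, so reads there cannot be told apart. The reads counted for TREX1 were 33.4% to 65.2% as many as those counted for ATRIP in the same library. With the reads counted for TREX1 taken off, an alternative chosen after seeing the data, the differences were -1.27 (adjusted p = 9.4e-05) and -0.47 (adjusted p = 0.066).

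ATM rose by similar amounts in both fractions. In CCNB1-negative cells it read 10.06 and 9.85 untreated and 10.50 and 10.88 in selumetinib, a rise of 0.74 (0.35 to 1.13, adjusted p = 0.0022). In CCNB1-positive cells it read 9.92 and 9.53 untreated and 10.35 and 10.59 in selumetinib, a rise of 0.74 (0.35 to 1.13, adjusted p = 0.0026). All 4 treated libraries were above all 4 untreated ones. Each rise was below 2-fold, and relative to the median of all genes tested it was 0.69 and 0.58. The test of the difference between the responses gave 0.01 (-0.54 to 0.56, adjusted p = 0.99), and its interval reaches 0.56.

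TOPBP1, the scaffold whose activating domain stimulates ATR, fell in both fractions. It read 11.01 and 11.04 in untreated and 9.35 and 9.17 in selumetinib CCNB1-negative cells, which was 3.39-fold lower (-1.76, -2.06 to -1.46, adjusted p = 1.0e-07). In CCNB1-positive cells it read 10.76 and 10.74 against 10.12 and 10.16, a difference of -0.61 (-0.91 to -0.31, adjusted p = 0.0018). The replicates were close together, and the treated and untreated groups were far apart in the first comparison and did not overlap in the second.

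The subunits of the 9-1-1 clamp, a ring of 1 copy each of RAD9A, RAD1 and HUS1, moved in opposite directions. RAD9A rose from 9.81 and 9.73 to 10.94 and 11.25 in CCNB1-negative cells (1.32, 0.99 to 1.66, adjusted p = 3.4e-06) and from 9.43 and 9.24 to 10.45 and 10.51 in CCNB1-positive cells (1.15, 0.82 to 1.48, adjusted p = 2.5e-05). RAD1 fell from 10.44 and 10.65 to 8.53 and 8.73 in CCNB1-negative cells (-1.91, -2.25 to -1.58, adjusted p = 1.3e-07) and from 9.99 and 10.18 to 9.35 and 9.35 in CCNB1-positive cells (-0.74, -1.07 to -0.40, adjusted p = 9.8e-04). HUS1 fell from 8.61 and 8.57 to 6.94 and 6.41 in CCNB1-negative cells (-1.92, -2.43 to -1.41, adjusted p = 6.0e-06) and from 8.60 and 8.88 to 7.63 and 7.15 in CCNB1-positive cells (-1.35, -1.86 to -0.84, adjusted p = 2.3e-04). No treated library of these 3 genes reached into the range of its untreated group. In CCNB1-negative cells 79.8% of all genes tested had a lower difference than RAD9A, 6.25% than RAD1 and 6.16% than HUS1. RAD9A shares 5.5% of its exon bases with PPP1CA on the opposite strand, RAD1 and HUS1 share none, and how strand was handled in counting is not given in the sources used here. Opposite-strand overlap was 13.4% for CHEK1, 9.1% for RAD17, 7.5% for ATR, 6.5% for CHEK2 and at most 1.5% for TOPBP1, ATM and ATRIP. The part of such overlap in the values was not tested.

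The ratio of 2 genes inside a library does not depend on how libraries are scaled, and reads per base of the MANE Select transcript were compared for this. RAD9A over RAD1 was 1.40 and 1.15 in untreated CCNB1-negative cells and 11.5 and 12.4 in selumetinib. In CCNB1-positive cells it was 1.46 and 1.12 untreated and 4.62 and 4.87 in selumetinib. RAD9A over HUS1 went from 3.31 and 3.23 to 23.1 and 41.5 in CCNB1-negative cells and from 2.56 and 1.85 to 10.2 and 14.9 in CCNB1-positive cells. RAD1 over HUS1, in contrast, stayed between 1.65 and 3.35 in all 8 libraries. These ratios are of mRNA and were not tested, and they show unequal change, not which gene stayed level.

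RAD17 replaces the largest subunit of the replication clamp loader in the complex that loads 9-1-1. It read 9.02 and 9.28 in untreated and 9.82 and 9.67 in selumetinib CCNB1-negative cells, a rise of 0.59 (0.25 to 0.93, adjusted p = 0.0037). In CCNB1-positive cells it read 9.53 and 9.46 against 9.57 and 9.71, a difference of 0.15 (-0.19 to 0.48, adjusted p = 0.43). The groups did not overlap in either fraction. The rise in CCNB1-negative cells missed the threshold without untreated CCNB1-negative replicate 1 (adjusted p = 0.051), and the CCNB1-positive difference passed it with scaling to nuclear genes without MALAT1 (0.40, adjusted p = 0.039).

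CHEK1, the kinase that carries the ATR signal and restrains CDC25A, had the largest change of the 10 genes in CCNB1-negative cells. It read 10.84 and 11.10 untreated, from 1691 and 1743 reads, and 8.11 and 8.10 in selumetinib, from 176 and 162 reads. This was 7.28-fold lower (-2.86, -3.18 to -2.54, adjusted p = 3.5e-09), and 1.54% of all genes tested had a lower value. In CCNB1-positive cells CHEK1 read 10.67 and 10.70 against 9.57 and 9.66, a difference of -1.07 (-1.39 to -0.75, adjusted p = 3.2e-05). The treated CCNB1-positive libraries lay between the untreated libraries and the treated CCNB1-negative ones.

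CHEK2, the effector kinase downstream of ATM, fell in CCNB1-negative cells and was 1.96-fold lower there. It read 10.35 and 10.30 untreated and 9.20 and 9.52 in selumetinib (-0.97, -1.32 to -0.62, adjusted p = 1.1e-04). In CCNB1-positive cells it read 11.08 and 11.00 against 10.71 and 11.08, and these groups overlapped (-0.15, -0.50 to 0.21, adjusted p = 0.45). CHEK2 over CHEK1, per base of transcript inside each library, was 1.59 and 1.29 in untreated CCNB1-negative, 2.97 and 2.76 in untreated CCNB1-positive, 4.76 and 5.97 in selumetinib CCNB1-negative, and 4.94 and 5.999 in selumetinib CCNB1-positive cells. The 4 treated libraries had the highest ratios, and the treated fractions overlapped.

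**Figure D2:**
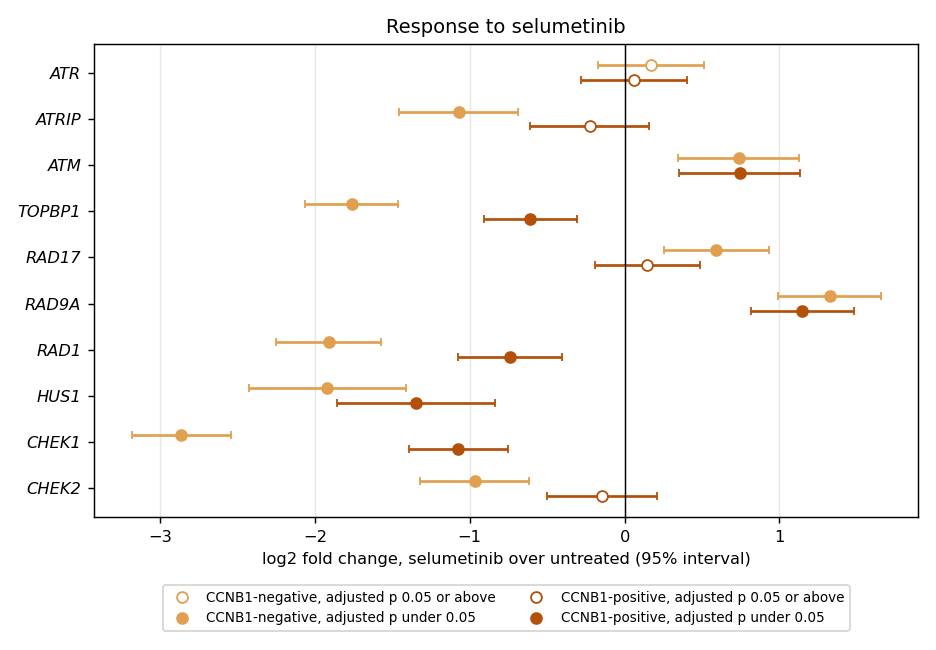
Log2 fold change of selumetinib over untreated cells (x axis) for each gene (y axis) in CCNB1-negative and CCNB1-positive cells, with 95% intervals from the fit across all genes and filled points where the adjusted p was under 0.05. CHEK1 lies furthest to the left at -2.86, RAD9A lies furthest to the right at 1.32 and 1.15, and ATR is near 0 in both fractions.

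**Figure D3:**
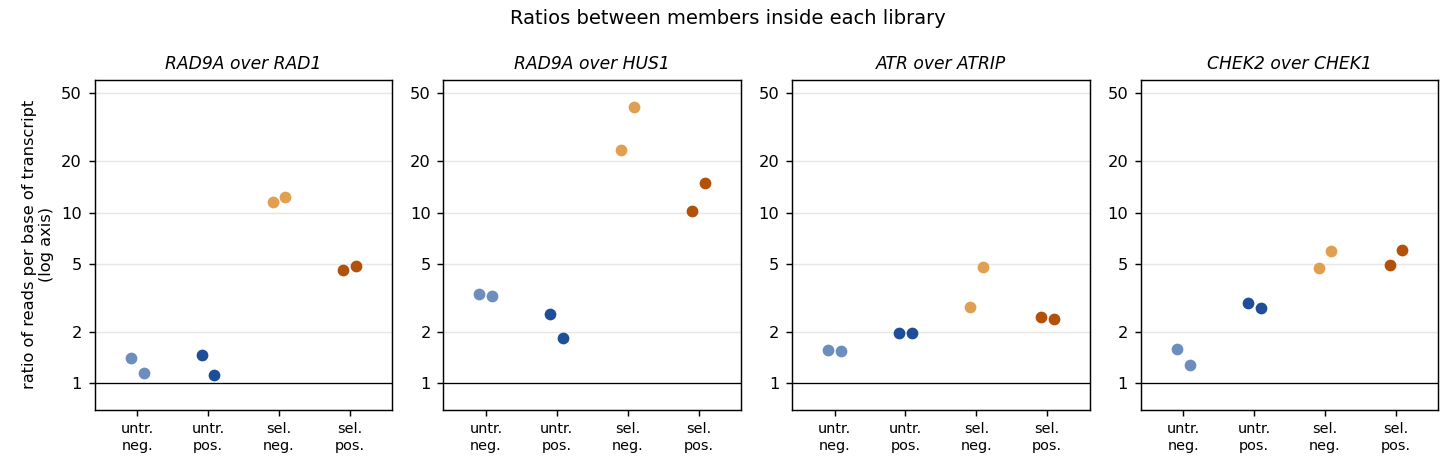
Ratio of reads per base of transcript between 2 genes (y axis, log scale) in each library, with 2 points per group (x axis, abbreviated as in the plot of log2 values). RAD9A over RAD1 is near 1 in the 4 untreated libraries and reaches 12.4 in selumetinib CCNB1-negative cells.

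In untreated cells few differences between the fractions passed the test. CHEK2 was higher in CCNB1-positive cells by 0.72 (0.36 to 1.07, adjusted p = 0.029), and it was the only 1 of the 10 that passed in this fit. Of all genes tested 2.87% passed, 1.36% of all as higher and 1.51% of all as lower. The call rests on all 4 untreated libraries, since without any 1 of them the difference was 0.68 to 0.75 and the adjusted p was 0.11 to 0.16. Of the other 9 genes, RAD1 differed by -0.46 (adjusted p = 0.17) and RAD9A by -0.44 (adjusted p = 0.19). ATRIP differed by -0.40 (adjusted p = 0.34), or by 0.14 with TREX1 reads taken off, and RAD17 by 0.34 (adjusted p = 0.37). With a replicate block for the pair of fractions RAD1 (adjusted p = 0.0081) and RAD9A (adjusted p = 0.0079) passed, where 13.5% of all genes did. The groups did not overlap for 7 of the 10, where 44.3% of all genes did not overlap.

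In selumetinib the fractions were further apart. These comparisons use the same 8 libraries as the responses above, so they are not independent of them. Of the 10 genes 5 were higher and 1 was lower in CCNB1-positive cells, where 21.6% of all genes differed, 13.8% higher and 7.87% lower. The groups did not overlap for 7 of the 10, where 63.9% of all genes did not overlap. The effectors had the largest differences, CHEK2 at 1.54 (1.19 to 1.89, adjusted p = 1.3e-05) and CHEK1 at 1.51 (1.19 to 1.83, adjusted p = 5.6e-06). TOPBP1 was higher by 0.88 (0.58 to 1.18, adjusted p = 5.9e-04) and RAD1 by 0.72 (0.38 to 1.05, adjusted p = 0.0060). HUS1 was higher by 0.72 (0.21 to 1.23), but at an adjusted p of 0.045 that rose to between 0.053 and 0.32 in 9 of the alternatives. Its value was 0.45 without selumetinib CCNB1-negative replicate 2 and 0.48 without selumetinib CCNB1-positive replicate 1. RAD9A was lower by 0.62 on this scale (adjusted p = 0.013), a call that was lost without selumetinib CCNB1-negative replicate 2 (adjusted p = 0.11) and without either selumetinib CCNB1-positive library (adjusted p = 0.095 and 0.054). ATRIP differed by 0.44 (adjusted p = 0.091), without selumetinib CCNB1-negative replicate 1 by 0.64, and with the TREX1 reads taken off by 0.94 (adjusted p = 0.0071). With a replicate block for the pair of fractions the ATRIP difference passed (adjusted p = 0.014), where 46.9% of all genes did.

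**Figure D4:**
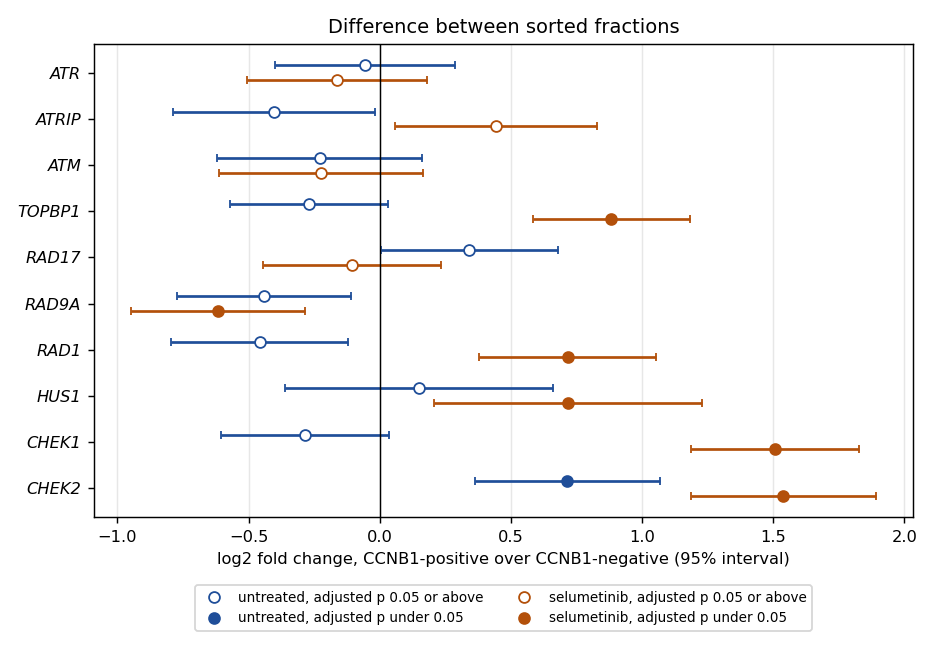
Log2 fold change of CCNB1-positive over CCNB1-negative cells (x axis) for each gene (y axis) in untreated cells and in selumetinib, with 95% intervals and filled points where the adjusted p was under 0.05. In untreated cells CHEK2 alone is filled, at 0.72, and in selumetinib CHEK1 and CHEK2 are at 1.51 and 1.54.

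The responses of the fractions were compared by the interaction term, in which a positive value is a smaller fall or a larger rise in CCNB1-positive cells. It passed for 3 of the 10 genes, all positive, where 5.33% of all genes passed, 4.99% of all genes with a positive and 0.345% with a negative value. CHEK1 had 1.79 (1.34 to 2.24, adjusted p = 7.1e-05), RAD1 had 1.17 (0.70 to 1.65, adjusted p = 0.0047) and TOPBP1 had 1.15 (0.73 to 1.58, adjusted p = 0.0023). CHEK2 at 0.82 (adjusted p = 0.058) and ATRIP at 0.85 (adjusted p = 0.074) were near the threshold, and CHEK2 passed it with quantile normalisation (adjusted p = 0.048), without selumetinib CCNB1-negative replicate 2 (adjusted p = 0.034) and without selumetinib CCNB1-positive replicate 1 (adjusted p = 0.041). ATRIP passed it without selumetinib CCNB1-negative replicate 1 (adjusted p = 0.018). With a replicate block for the pair of fractions CHEK2 (adjusted p = 0.00025) and ATRIP (adjusted p = 0.0044) both passed, where 27.1% of all genes did. The labels do not tie same-numbered libraries, so this block was not used in the reported fit. HUS1 had 0.57 (-0.15 to 1.29, adjusted p = 0.36), an interval that holds the values of RAD1 and TOPBP1. RAD9A had -0.18 (-0.64 to 0.29, adjusted p = 0.69). The median of the 10 was 0.70 and of all genes 0.11.

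Markers of the cell cycle phases also differed between the groups. The summed level of 5 S phase genes (PCNA, MCM2, MCM5, CCNE2 and RRM2) was 1130 to 1216 RPM in untreated CCNB1-negative cells, 627 to 678 in untreated CCNB1-positive, 84.9 to 98.0 in selumetinib CCNB1-negative and 301 to 333 in selumetinib CCNB1-positive cells. The summed level of 5 G2 and M genes (CCNB1, TOP2A, CDC20, PLK1 and CENPF) was 645 to 769, 3065 to 3382, 78.5 to 107 and 2506 to 2658 RPM in the same order. None of these 10 markers was without a read in any library. CHEK1, TOPBP1, RAD1 and ATRIP had the same order of groups as the S phase sum, highest in untreated CCNB1-negative and lowest in selumetinib CCNB1-negative cells. In the reported fit none of these passed the test between untreated fractions. With TREX1 reads taken off, ATRIP was higher by 0.14 in untreated CCNB1-positive cells. CHEK2 had the order of the G2 and M sum, and HUS1 had neither order. The means of ATR, ATM, RAD9A and RAD17 were instead highest in selumetinib CCNB1-negative cells, where both sums were lowest. The libraries of ATR overlapped between groups. How many of all genes share either order was not counted. The part of cell cycle composition in the results above was not tested.

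The proteins that work beside these 10 were read from lists. Of all genes tested, 38.2% rose and 35.8% fell in CCNB1-negative cells, and 38.0% rose and 27.3% fell in CCNB1-positive cells. Of 8 ATR activators and fork mediators (ETAA1, RHNO1, CLSPN, TIMELESS, TIPIN and RPA1 to RPA3), 7 fell in the CCNB1-negative fraction and 6 in the CCNB1-positive fraction, with medians of -1.99 and -0.59. CLSPN, the adaptor that lets ATR phosphorylate CHEK1, changed by -3.32 and RPA3, a subunit of the protein that coats single-stranded DNA, by -2.56 in CCNB1-negative cells. In CCNB1-positive cells RPA1 changed by -1.20 and TIPIN, of the fork protection complex, by -1.15. ETAA1, the other known direct activator of ATR, is on this list and had 0.01 (adjusted p = 0.96) and 0.37 (adjusted p = 0.093).

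All 4 small RFC subunits that partner RAD17 fell in both fractions, with medians of -2.96 and -0.86. RFC3 changed by -3.61 in CCNB1-negative cells and RFC2 by -1.41 in CCNB1-positive cells. RAD17 itself differed by 0.59 and 0.15. Of the paralogs RAD9B and HUS1B only RAD9B passed the filter. RAD9B had between 12 and 62 reads per library, and it rose by 1.83 (adjusted p = 0.0029) in CCNB1-positive cells.

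Of 10 ATM activators and break mediators, 1 rose and 4 fell in CCNB1-negative cells, and 3 rose and 2 fell in CCNB1-positive cells, with medians of -0.31 and -0.22. Over all genes 38.2% and 38.0% rose, and 35.8% and 27.3% fell. H2AFX, the histone that ATM phosphorylates around breaks, changed by -2.81 and NBN, a subunit of the complex that recruits ATM, by -1.38 in CCNB1-negative cells. TP53BP1, a break mediator, rose by 0.75 there and by 0.46 in CCNB1-positive cells. BRCA1 rose by 0.63 in CCNB1-positive cells.

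Of 13 checkpoint effectors, 2 rose and 6 fell in CCNB1-negative cells, and 3 rose and 4 fell in CCNB1-positive cells, with medians of -0.27 and 0.07. Again 38.2% and 38.0% of all genes rose, and 35.8% and 27.3% fell. CDK1, the mitotic kinase, and CDC25A, a phosphatase that activates it and CDK2, both changed by -4.17 in CCNB1-negative cells, and CDC25A by -1.80 in CCNB1-positive cells. TLK2, a kinase that checkpoint signalling inhibits, rose by 1.04 in CCNB1-negative cells. CDKN1A, the CDK inhibitor p21, rose by 1.66 (adjusted p = 0.0090) in CCNB1-positive cells, and its value in CCNB1-negative cells was 0.37 (adjusted p = 0.51).

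Of 7 relatives of ATR and ATM and their chaperones, 3 fell in each fraction, with medians of -0.46 and -0.29, where 35.8% and 27.3% of all genes fell. PRKDC, the catalytic subunit of DNA-dependent protein kinase, changed by -1.61 and -1.18, and TTI1, a chaperone subunit that stabilises these kinases, by -1.25 and -0.54. ATM, of the same kinase family, rose in both fractions.

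**Figure D5:**
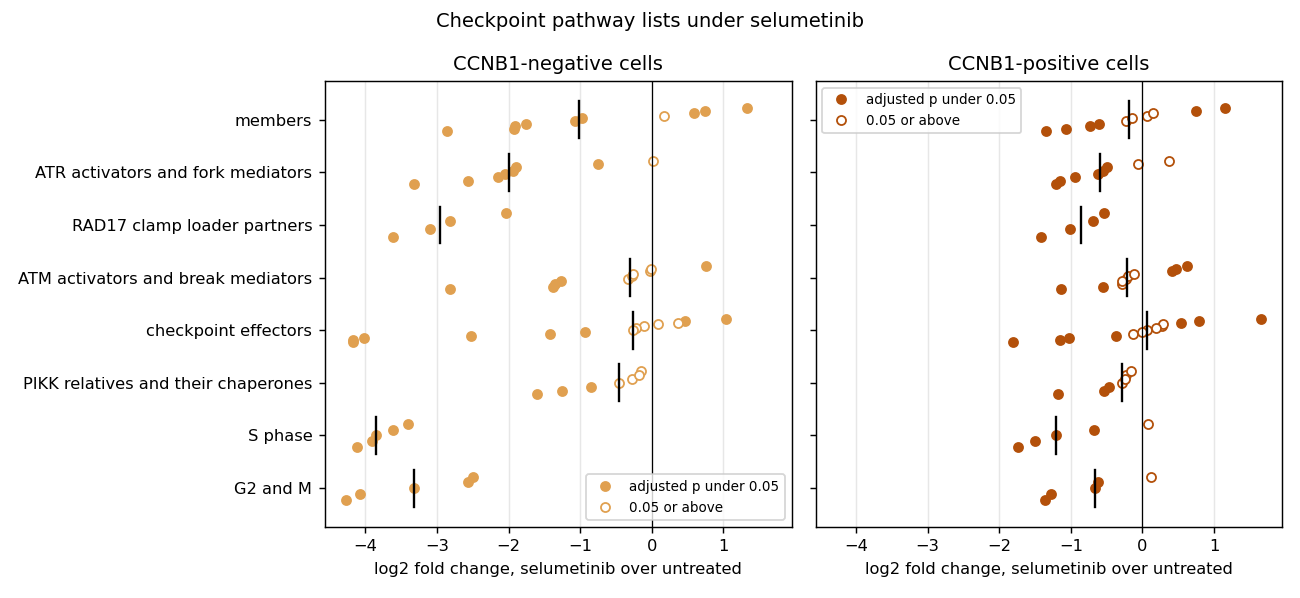
Log2 fold change of selumetinib over untreated cells (x axis) for each gene of a list (y axis), 1 point per gene, filled where the adjusted p was under 0.05, with a bar at the median of the list. The 4 RFC subunits lie left of 0 in both fractions, and the medians of the 8 lists drawn are nearer to 0 in CCNB1-positive than in CCNB1-negative cells.

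Levels between genes were compared as RPM per kb of the MANE Select transcript. CHEK2 was the highest of the 10 at 29.1 ± 0.89 (SD, n = 2) in untreated CCNB1-negative cells, 47.6 ± 2.1 in untreated CCNB1-positive cells and 46.6 ± 8.7 in selumetinib CCNB1-positive cells. In selumetinib CCNB1-negative cells RAD9A was highest at 48.6 ± 8.2, ahead of CHEK2 at 16.5 ± 2.8. CHEK1 was second in both untreated groups at 20.4 ± 2.4 and 16.6 ± 0.12, ahead of RAD9A at 17.5 ± 0.84 and 12.9 ± 1.3, and the libraries of neither pair overlapped. It was ninth in selumetinib CCNB1-negative cells at 3.07 ± 0.030, where it overlapped ATRIP at 3.52 ± 0.64. ATM was the lowest of the 10 in untreated cells at 3.22 ± 0.37 and 2.75 ± 0.54, and HUS1 was the lowest in selumetinib at 1.58 ± 0.39 and 2.53 ± 0.57. These ranks, and that of CHEK1 in selumetinib CCNB1-negative cells, leave the reads counted for TREX1 in ATRIP. With those reads taken off ATRIP would be lower, and some of these ranks would change. In selumetinib CCNB1-negative cells ATR at 12.9 ± 2.6 and RAD17 at 12.9 ± 0.75 overlapped. ATR over ATM inside each library was 3.08 to 3.86 in untreated and 2.17 to 2.34 in selumetinib cells, and ATR over ATRIP was 1.54 to 1.98 and 2.39 to 4.82. With the TREX1 reads taken off, ATR over ATRIP was 2.96 to 3.64 in untreated and 4.47 to 13.9 in selumetinib cells.

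Genes with the most similar patterns were ranked by the root mean square difference of log2 values over the 8 libraries after centring each gene on its own mean. For ATR these were LMBR1 (0.067), ACACA (0.069) and CDS2 (0.074), and for ATM they were TNRC6A (0.064), SENP5 (0.072) and ENOSF1 (0.076). For CHEK1 they were GLA (0.12), PCLAF (0.13) and TEX30 (0.14), and for CHEK2 they were TDP1 (0.14), GLI2 (0.14) and EMC9 (0.16). The 10 genes were left out of the search, as were genes whose symbol is a clone identifier or begins with LINC.

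Promoter sequence is shown for both effector kinases, for TOPBP1, which held the only E2F match, for RAD9A, which rose, and for ATR, which did not pass the test. RefSeq windows of GRCh38.p14 from 250 bases before to 50 after the start site were found for 9 of the 10 genes, with 15 windows in all, and HUS1 was not matched. They were searched on both strands for the E2F motif (TTTCCCGC, TTTCGCGC, TTTGCCGC or TTTGGCGC), the CHR element (TTTGAA or TTCGAA), which cell cycle complexes bind, and CCAAT, the motif of NF-Y. Of 35116 windows of that length 3.3% held the E2F letters, 16.4% the CHR letters and 34.6% CCAAT. The 250 bases before the start and the start base are shown 5′ to 3′ in the direction of the gene, for CHEK1 at chr11:125626106-125626356 on the plus strand, CHEK2 at chr22:28741820-28742070 on the minus strand, TOPBP1 at chr3:133661941-133662191 on the minus strand, ATR at chr3:142578733-142578983 on the minus strand and RAD9A at chr11:67391736-67391986 on the plus strand. CHEK1 has 3 start sites in this table, and the window with the most matches is shown. Capitals mark E2F and CCAAT matches on either strand, and none overlap.
CHEK1: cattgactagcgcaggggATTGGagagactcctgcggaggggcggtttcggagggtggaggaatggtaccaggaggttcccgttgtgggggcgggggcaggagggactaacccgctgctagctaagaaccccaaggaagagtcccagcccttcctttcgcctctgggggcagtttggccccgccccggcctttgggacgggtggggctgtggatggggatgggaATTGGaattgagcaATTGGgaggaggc
CHEK2: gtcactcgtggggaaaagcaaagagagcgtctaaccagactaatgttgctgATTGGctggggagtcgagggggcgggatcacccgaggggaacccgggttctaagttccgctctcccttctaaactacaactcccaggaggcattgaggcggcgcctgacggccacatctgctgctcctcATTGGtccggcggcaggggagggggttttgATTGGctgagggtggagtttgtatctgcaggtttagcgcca
TOPBP1: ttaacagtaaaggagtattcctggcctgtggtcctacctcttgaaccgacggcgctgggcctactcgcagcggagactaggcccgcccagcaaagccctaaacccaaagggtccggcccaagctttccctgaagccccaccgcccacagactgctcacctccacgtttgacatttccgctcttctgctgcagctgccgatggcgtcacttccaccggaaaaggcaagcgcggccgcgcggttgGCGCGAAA
ATR: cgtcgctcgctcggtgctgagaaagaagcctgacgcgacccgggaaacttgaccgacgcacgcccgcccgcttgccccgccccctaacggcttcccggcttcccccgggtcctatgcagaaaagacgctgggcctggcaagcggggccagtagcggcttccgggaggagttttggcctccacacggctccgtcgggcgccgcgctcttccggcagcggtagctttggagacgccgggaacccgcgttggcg
RAD9A: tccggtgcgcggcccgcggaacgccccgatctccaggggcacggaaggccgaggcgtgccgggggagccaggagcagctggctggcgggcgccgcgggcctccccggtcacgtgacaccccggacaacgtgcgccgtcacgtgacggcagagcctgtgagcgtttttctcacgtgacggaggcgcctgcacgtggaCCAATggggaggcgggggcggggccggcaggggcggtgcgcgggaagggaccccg
TOPBP1 was the only 1 of the 9 with an E2F match, which ends at the start base. CHEK2 and this start site of CHEK1 each had 3 CCAAT matches, all as ATTGG, and RAD9A had 1. CCAAT was also found for ATRIP, ATM and RAD17, which makes 6 of the 9 genes, and the ATR window held none of the 3 motifs. Counted by gene, 39.7% of 27305 genes held CCAAT, 19.5% the CHR letters and 4.0% the E2F letters. Genes with several start sites had more windows searched. A CHR match was found for ATM and for RAD17, which are not printed here, and RAD1 had no match to any of the 3. A match describes letters in this window, and binding was not measured.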

How the data were processed

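mRNA-seq of glyoxal-fixed, CCNB1-sorted HT29 cells was analysed in 8 libraries, 2 per group. Per the labels, Trim Galore 0.5.0 and HISAT2 2.1.0 (build GRCh38) were used before gene quantification in SeqMonk 1.47.0. The deposited values are log2 reads, which the authors normalised to total read count. The tool names and versions of trimming and mapping are from the submitters' processing notes. The annotation release and strand handling of the table are not given in the sources used here. Each library is scaled to the largest, genes without a read are set at 0.9 reads, and 100% of the values above this level gave back whole reads (relative tolerance 1e-05). These reads carry no molecular identifiers. All 8 value columns were used and 0 set aside.

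All genes whose mean log2 value was at or above that of 1 RPM were fitted with limma 3.58.1 (R 4.3.3), a mean-variance trend and 1 coefficient per group, two-sided. The log2 branch of the planned design was used. The fit was also run on simulated data in which few genes changed, unlike here, so that run does not show how it performs on these data. Replicates differed by more than sampling noise, and nothing in the labels says that they came from separate cultures, so p-values measure the spread between these libraries, which may be technical. Same-numbered libraries were not taken as pairs. Exon overlaps are from GENCODE release 44. Python 3.11.15, pandas 2.3.3 and matplotlib 3.10.9 were used.

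The 10 genes and the lists were chosen with earlier results of these data known. Named genes are all 10, up to 2 rises and 2 falls per list and fraction that pass, the 3 nearest patterns for the 4 kinases, CCNB1 and up to 3 MEK output genes. ETAA1, epithelial markers and genes listed to define a list were named outside this rule, ETAA1 after its values were seen. Alternatives were other thresholds, filters, scalings and a pseudocount of 0.1 RPM, limma-voom, replicate blocks, fewer groups, TREX1 reads taken off, and leaving out each library.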

Additional observations from a re-analysis of the deposited data

Results flagged for a closer look

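The response to selumetinib differed between the sorted fractions for 3 of the 10 genes by the interaction term of the limma fit. Benjamini-Hochberg adjustment was over all genes tested, of which 5.33% passed, 4.99% of all with a positive and 0.345% with a negative value. CHEK1 differed by 1.79 on the log2 scale (adjusted p = 7.1e-05), RAD1 by 1.17 (adjusted p = 0.0047) and TOPBP1 by 1.15 (adjusted p = 0.0023), each with the smaller fall in CCNB1-positive cells. All 3 kept their call with every library left out in turn.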

How the results depend on the processing

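Of 920 values of single genes under alternatives, 853 kept their direction and their side of the threshold, 15 newly passed, 32 no longer passed and 20 changed sign. No value that passed the test changed sign. Scaling to nuclear genes without MALAT1 moved the median of all genes from 0.05 to 0.36 in CCNB1-negative and from 0.17 to 0.42 in CCNB1-positive cells, and the genes called higher and lower from 5438 and 5092 to 6588 and 3854 and from 5400 and 3888 to 6676 and 2614. This scaling turned ATRIP (0.0262) and CHEK2 (0.105) in the response of CCNB1-positive cells, where limma-voom gave -0.0785 for ATR and -7.7e-05 for RAD17. Leaving out each library, ATR ranged in that response from -0.0392 to 0.17 and CHEK2 from -0.33 to 0.0366. In the same way ATR ranged from -0.0228 to 0.36 in the response of CCNB1-negative cells, from -0.16 to 0.0443 between untreated fractions, from -0.36 to 0.0280 between treated fractions and from -0.30 to 0.0860 for the interaction. ATRIP between untreated fractions was 0.14 with TREX1 reads taken off. The interaction of ATM was -0.10 with quantile normalisation, -0.0578 with nuclear scaling, -0.0287 with the pseudocount, -0.0799 with limma-voom, and -0.19 to 0.20 without each library. ATRIP passed in CCNB1-positive cells with quantile normalisation (-0.43, adjusted p = 0.049). The cause of these changes was not tested.

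With a 2-fold change required, 3 genes passed in the response of CCNB1-positive cells, 0 between untreated fractions and 2 between treated fractions, where 34.3%, 1.79% and 6.39% of all genes did. Between untreated fractions 0 of the 10 passed in limma at an adjusted p under 0.01, where 1.53% of all genes did. With quantile normalisation 0 passed, where 1.79% of all genes did. In the reported fit 1 passed, where 2.87% of all genes did, and with limma-voom 1 passed, where 2.94% did. In the reported fit 5 of the 10 had an unadjusted p under 0.05, and that share of all genes was not counted. Leaving out a library left its group without a replicate, so the numbers of genes that passed in those fits are not compared. The replicate number as a block changed 1 call, the interaction of CHEK2 (adjusted p = 0.042). A replicate block for the pair of fractions gave 3 genes between untreated fractions, where RAD9A (adjusted p = 0.0079) and RAD1 (adjusted p = 0.0081) were added and 13.5% of all genes passed. It gave 5 for the interaction, where CHEK2 (adjusted p = 0.00025) and ATRIP (adjusted p = 0.0044) were added and 27.1% of all genes passed, and it added ATRIP between treated fractions (adjusted p = 0.014), where 46.9% passed. Deviations of same-numbered libraries correlated at 0.35 between untreated and 0.43 between treated fractions and at -0.09 to 0.08 elsewhere. Nothing in the labels says that same-numbered libraries share a culture, so they were not treated as pairs. The 10 RPM filter, which like that of 1 RPM is set on the mean log2 value, left out HUS1. The shallowest library had 12696860 reads on genes, and depth limits RAD9B, CDKN1A and HUS1, with as few as 12, 29 and 50 reads in a library.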
